A study of Pimephales promelas with 28 samples.

Results

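Liver of phenanthrene-exposed fathead minnows (Pimephales promelas) at 72 h was set against exposed liver at 48 h. The arrays were chosen by their labels alone, namely agent phenanthrene with time point 72 h (4 arrays) or 48 h (5 arrays), and made up 9 of the 28 one-colour arrays of the study. All fish were female and are described as sexually regressed, and exposed fish carry a labelled dose of 29 ng per L. Liver of fish with no agent and a labelled dose of 0 ng per L, at 72 h (5 arrays) and 48 h (5 arrays), served to read the same interval without phenanthrene. The remaining arrays were of 24 h, 5 exposed and 4 control. They entered the estimate of spread, the choice of probes tested and the 24 h values given for some probes. Strain, age, the means of regression and whether an array held the RNA of 1 fish are not given in the sources used here. The p-values below therefore measure the spread between arrays, which may be in part technical.

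Phenanthrene is a polycyclic aromatic hydrocarbon found in crude oil and combustion products. Vertebrate liver clears such compounds by oxidation through cytochrome P450 enzymes, some of them under the aryl hydrocarbon receptor, followed by conjugation to glucuronic acid, sulfate or glutathione. Phenanthrene itself is generally a weak ligand of that receptor compared with larger ring systems. In female fish the liver also makes vitellogenin, the yolk precursor, under estrogen control, and this output is low in females whose ovaries have regressed. None of these transcripts could be read by name. Identifiers on these arrays are contigs, gi numbers or clone names, and 0 of the 15208 matched the reference table of 64593 genes. Transcripts are therefore given by probe, and the liver label could not be set against hepatocyte markers.

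Array quality was uneven within both times. The 75th percentile of processed signal, the scale factor of each array, was 342.7, 243.1, 213.8 and 1253 units on 72 h replicates 1 to 4. On 48 h replicates 1 to 5 it was 334.4, 292.8, 511.1, 328.7 and 220.2 units. One 72 h array, replicate 4, was thus the brightest of the 9, while the other three 72 h arrays lay within the 48 h range or just below it. Of the 15208 probes, 10827, 11202, 10959 and 8865 were well above background on the 72 h arrays, against 9149, 8889, 12278, 10740 and 10533 on the 48 h arrays. So the brightest array had the fewest detected probes of the 9. Of all 28 arrays, exposed 24 h replicate 3, which belongs to neither of the compared times, had the fewest, 5127.

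Bright-corner spots, a set of control features on each array, lay at 11.13, 11.03, 10.88 and 19.004 log2 units on the 72 h arrays. On the 48 h arrays they lay at 17.87, 11.21, 10.63, 10.91 and 10.32 log2 units. Exposed 72 h replicate 4 and exposed 48 h replicate 1 stand apart in this measure, and they also had 498 and 201 spots marked non-uniform, where the other 7 arrays had at most 12. Results are given with and without this pair. None of 4 array measures passed between 72 h and 48 h in a two-sided exact permutation test over every split of the 9 arrays. The Benjamini-Hochberg adjusted p was 0.810 for each of the 75th percentile (8.59 ± 1.17 against 8.34 ± 0.44 log2 units, SD, n = 4 and 5), the number of detected probes, the bright-corner signal and the negative-control signal.

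Scan day ran with time. All 4 exposed 72 h arrays were scanned on the second of 2 days, whereas 4 of the 5 exposed 48 h arrays (replicates 1 to 4) were scanned on the first and replicate 5 on the second. In control liver, likewise, all 5 arrays of 72 h and 1 of 5 arrays of 48 h belonged to the second day. Slides were inferred here: arrays with the same scan date and time in the file headers were given the same slide number, and no slide label was read. Only slide 5 held exposed arrays of both times, namely 72 h replicates 3 and 4 and 48 h replicate 5. Within the second scan day, or within a slide, 72 h can therefore be set against only 1 exposed 48 h array. All 24 h arrays were also of the second day. A block for scan day therefore compares, at 48 h only, exposed replicate 5 and control replicate 1 with the first-day arrays. It assumes the same effect of scan day in exposed and control liver.

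**Figure D1:**
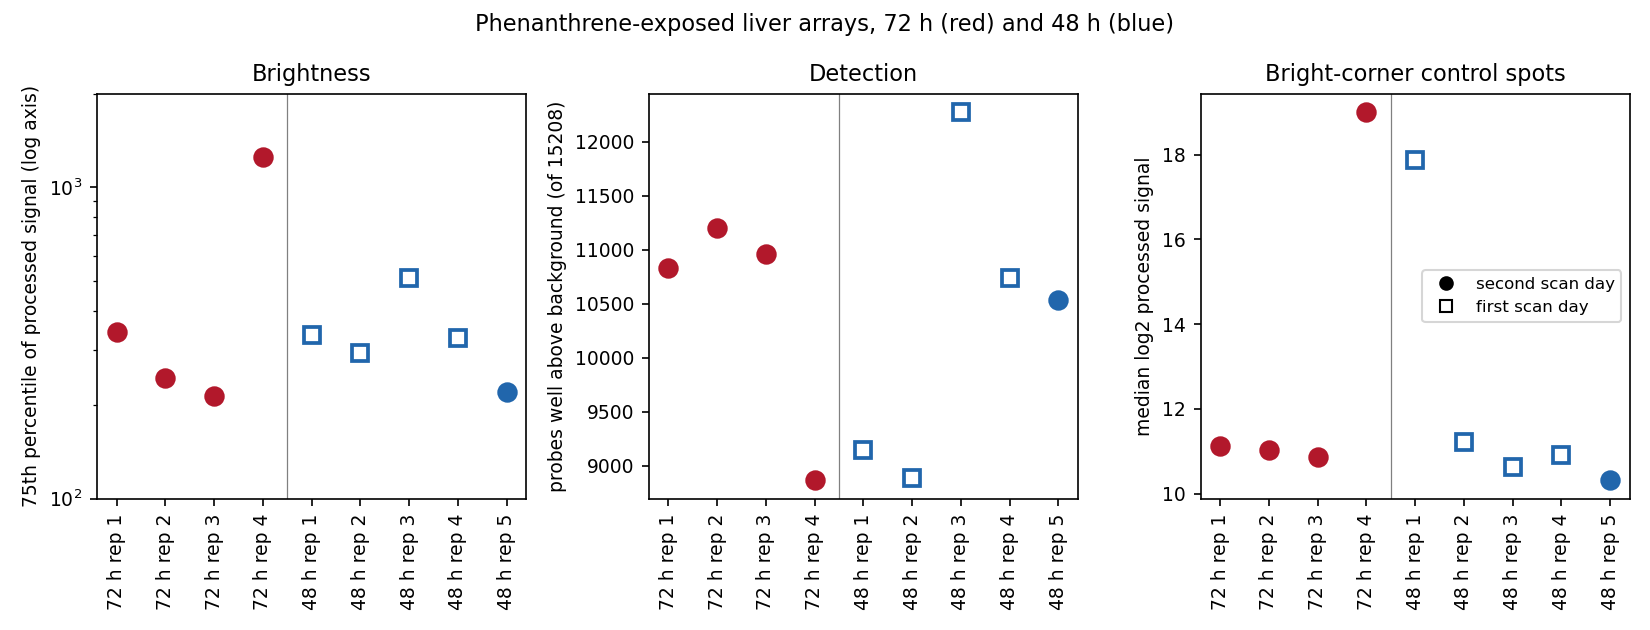
The 9 exposed arrays, 72 h in red left of 48 h in blue: the 75th percentile of processed signal (log axis, signal units), the number of probes well above background of 15208 probes, and the median log2 signal of bright-corner control spots. Filled circles are arrays of the second scan day and open squares those of the first; 72 h replicate 4 and 48 h replicate 1 lie at 19.004 and 17.87 log2 units in the right panel, where the others lie between 10.32 and 11.21.

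Whole liver profiles of 72 h and 48 h were not separated. Over the 10965 tested probes measured on each of the 9 arrays, the mean Pearson correlation of log2 levels was 0.885 between arrays of the same time and 0.889 between arrays of different times. The difference, same time minus different time, was -0.0034, with a one-sided exact permutation p of 0.627 over every split of the 9 arrays. Without the pair that stands apart, the 2 means were 0.905 and 0.914 (exact permutation p of 0.743 over 35 splits). These correlations share each array's own depth and brightness across all its pairs.

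Among single arrays, 72 h replicates 2 and 3 had their highest correlation with each other, at 0.944. Exposed 72 h replicate 1 was closest to 48 h replicate 5, at 0.942, an array of the same scan day. Exposed 72 h replicate 4 had a mean correlation of 0.839 with its own time, against 0.899, 0.907 and 0.904 for replicates 1, 2 and 3. At 48 h, replicate 3 had the lowest mean with its own time, 0.847, although its bright-corner signal was like that of most arrays. The 48 h replicates 4 and 5, scanned on different days, were closest to each other, at 0.943.

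**Figure D2:**
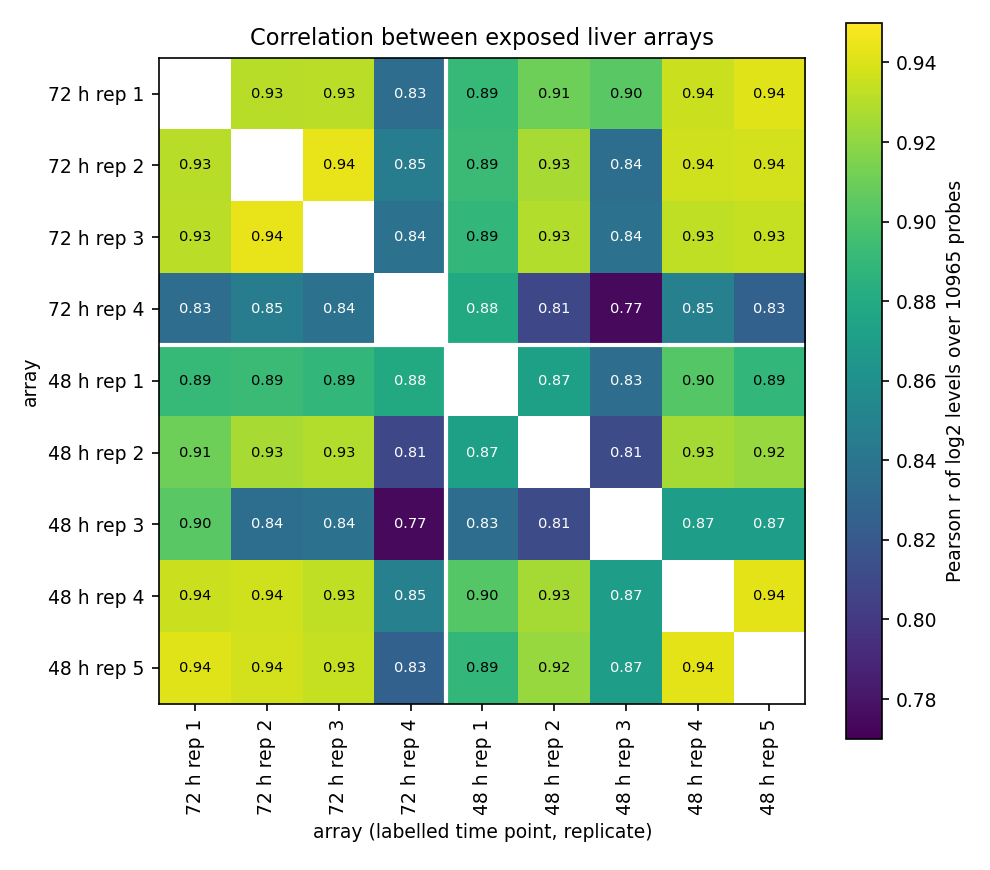
Pearson correlation of log2 levels between each pair of the 9 exposed arrays over 10965 probes, 72 h arrays before 48 h arrays. The rows of 72 h replicate 4 and 48 h replicate 3 are the darkest, which marks the lowest values, with 0.775 between them, and no block by time stands out.

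Across the liver transcripts measured, none passed the test between 72 h and 48 h of exposure. Levels are log2 processed signal relative to the array's 75th percentile, and a difference is 72 h minus 48 h. In whole liver, a lower level can mean fewer cells of a type or less RNA per cell, which cannot be told apart. After Benjamini-Hochberg adjustment in limma, 0 of 11492 probes (0%) had an adjusted p under 0.05, and the lowest value was 0.515. Before adjustment, 664 probes (5.78%) had a p under 0.05. Of these, 389 (3.38%) were higher at 72 h and 275 (2.39%) were lower. A share of this size lies close to the 5% that a test at this threshold passes when nothing differs, and it singles out no probe.

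How large a difference could have gone unseen varied by probe. For 16.8% of probes the 95% confidence interval of the difference excluded changes beyond 2-fold in both directions, and for 73.0% it excluded changes beyond 4-fold. Among the 7115 probes well above background on all 9 arrays, those shares were 25.7% and 83.8%. The median probe had an SD of 0.81 log2 units at 72 h and 0.84 at 48 h. Without the pair that stands apart, the median SD was 0.42 at 72 h and 0.69 at 48 h. Estimated differences beyond 2-fold were found for 1461 of 11492 probes, 654 higher and 807 lower at 72 h. The median SE was 0.53 over all probes. Among the 7115 probes well above background on all 9 arrays, 617 differed that much, 311 higher and 306 lower, with a median SE of 0.45.

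All arrays of 72 h lay above or below all arrays of 48 h for 128 of 10965 probes (1.17%), 80 above and 48 below. Without the pair there were 665 (6.06%), 476 above and 189 below, in a comparison of 3 against 4 arrays in which separation is easier to reach.

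Probes with a left-out spot on any of the 9 arrays were not eligible for naming below. Among eligible probes, the one with the smallest p on the higher side was UF_Ppr_AF_114875. Its levels were -0.06, -1.19, -0.72 and 0.93 on the 72 h arrays, against -3.89, -4.24, -3.44, -2.08 and -1.41 on the 48 h arrays. Every 72 h array was above every 48 h array, and the nearest 48 h array was replicate 5, the one of the second scan day. The difference was 2.75 (SE 0.56), with an adjusted p of 0.515 by limma. It was 2.14 (SE 0.60) without the pair and 1.55 (SE 0.70) with scan day as a block. Against the single 48 h array of the second day it was 1.15. The signal cleared background on 4 of the 5 arrays of 48 h, but not on replicate 2, the lowest. In control liver the means were -1.35 ± 0.63 at 72 h and -1.10 ± 0.61 at 48 h (SD, n = 5 each). Over 24, 48 and 72 h the exposed means were -1.58, -3.01 and -0.26, so the 48 h level was the lowest of the 3 times. That 48 h lay below 72 h follows from how the probe was picked.

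Second on that side was UF_Ppr_AF_101014, which was also the leading higher probe among those well above background on all 9 arrays. Its levels were -0.94, -0.48, -0.61 and -0.55 at 72 h, against -2.23, -1.22, -2.67, -2.16 and -2.25 at 48 h. The 2 times did not overlap, and the 72 h arrays lay close together, with an SD of 0.20 against 0.54 at 48 h. The difference was 1.46 (SE 0.32), with an adjusted p of 0.622 by limma. It changed little without the pair (1.40) or with scan day as a block (1.52, SE 0.45). Against the single 48 h array of the second day it was 1.61.

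UF_Ppr_AF_101014 showed a difference of the same sign in control liver. There its mean was -0.68 ± 0.27 at 72 h and -1.78 ± 0.22 at 48 h (SD, n = 5 each), a difference of 1.097 (SE 0.30), again with no overlap. In control liver 0 probes passed in limma, where the lowest adjusted p was 0.9995, and scan day ran with time there too. The exposed difference exceeded the control difference by 0.37 (SE 0.44), well within its error. A second probe of the same contig cluster, UF_Ppr_AF_101768, differed by 0.93 (SE 0.61) in exposed liver and cleared background on 3 of the 4 arrays of 72 h and on 3 of the 5 of 48 h.

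On the lower side, UF_Ppr_AF_101093 had the smallest p of the eligible probes, with all arrays and also without the pair. UF_Ppr_AF_110450, which has a left-out spot and is described with the array weights, had a smaller one by limma, unadjusted, with all arrays (0.000286 against 0.000345) and without the pair (0.000177 against 0.00102). The levels of UF_Ppr_AF_101093 were -3.98, -5.26, -5.27 and -6.86 at 72 h, against -4.28, -3.21, -2.75, -1.64 and -4.22 at 48 h. The times overlapped, since 72 h replicate 1 lay above 48 h replicates 1 and 5. The difference was -2.12 (SE 0.51; adjusted p 0.753 by limma), or -1.88 (SE 0.50) without the pair. It was -1.17 (SE 0.66) with scan day as a block. Its signal cleared background on 1 of the 4 arrays of 72 h and on each of the 5 of 48 h, so its 72 h levels were mostly at background.

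UF_Ppr_AF_107887 was likewise dim, at -3.82, -5.20, -5.06 and -5.56 at 72 h and -3.82, -3.97, -2.76, -2.80 and -3.49 at 48 h. Only 72 h replicate 1 reached the 48 h range. The difference was -1.54 (SE 0.39; adjusted p 0.753 by limma). Its signal cleared background on 1 of the 4 arrays of 72 h and 4 of the 5 of 48 h. UF_Ppr_AF_112485, a probe of the same contig cluster that was well above background on all 9 arrays, differed by -0.54 (SE 0.44).

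Among eligible probes well above background on all 9 arrays, the leading lower one was UF_Ppr_AF_105657. Its levels were -2.75, -3.41, -4.56 and -3.24 at 72 h, against -0.70, -1.49, -0.99, -1.39 and -2.43 at 48 h. No array overlapped, and 48 h replicate 5 was the nearest to the 72 h arrays. The nearest 48 h array differed by probe: for UF_Ppr_AF_101014 it was replicate 2 (-1.22), of the first scan day. The difference was -2.09 (SE 0.56; adjusted p 0.753 by limma), and -2.0015 (SE 0.64) without the pair. It was -1.57 (SE 0.77) with scan day as a block, and -1.06 against 48 h replicate 5 alone. Control liver differed by -0.69 (SE 0.53) over the same interval.

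**Figure D3:**
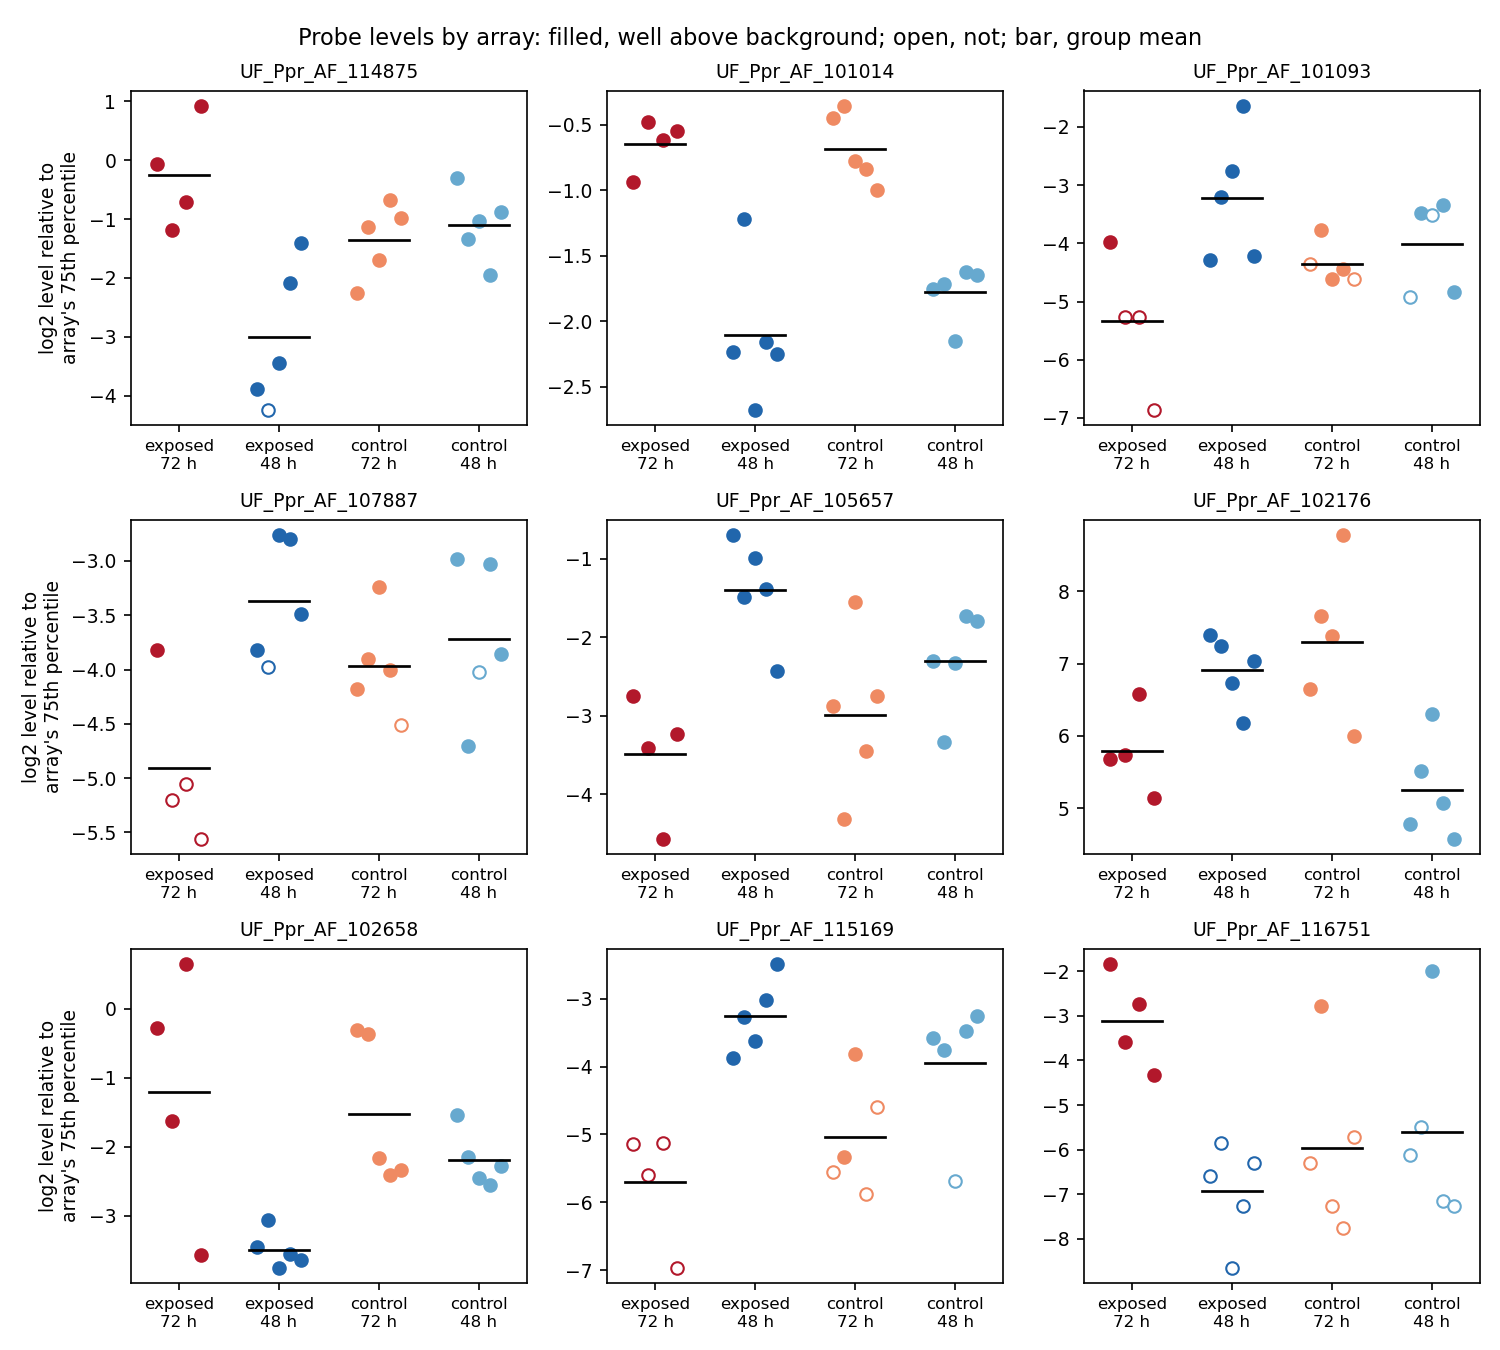
Log2 levels relative to the array's 75th percentile for the named probes on each array, exposed 72 h, exposed 48 h, control 72 h and control 48 h from left to right; bars are group means, filled circles are arrays where the probe was well above background and open circles those where it was not. The exposed 72 h arrays of UF_Ppr_AF_114875 (-1.19 to 0.93) lie above its exposed 48 h arrays (-4.24 to -1.41), while its control arrays overlap.

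Complete gain or loss of detection between the times was rare. Of all 15208 probes, 7115 were well above background on all 9 arrays and 1778 on none. Among the 14586 with no left-out spot on these arrays, 2 (0.0137%) were well above background on all 4 arrays at 72 h and on none at 48 h, and 1 (0.00686%) on all 5 at 48 h and none at 72 h. For these, a fold is a bound, the mean of the bright time over the lowest signal well above background on each array of the other time.

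UF_Ppr_AF_116751 was at -1.83, -3.58, -2.72 and -4.32 on the 72 h arrays, against -6.60, -5.86, -8.65, -7.26 and -6.30 on the 48 h arrays, where it was not well above background. It was at least 3.41-fold higher at 72 h (adjusted p 0.753 by limma). The probe was picked for its separation and was tested only through the exposed 72 h group, where it is high. That p and bound therefore give no support. UF_Ppr_AF_116751 was also not detected on any of 5 exposed arrays at 24 h, and was detected on 1 of 5 control arrays at 72 h and 1 of 5 at 48 h. With normexp, a background model run here with an added offset of 50 units, its log2 difference was 0.66. The offset shrinks differences of dim signals by construction, so this value cannot be set against the bound. The other such probe, UF_Ppr_AF_110529, was at least 1.81-fold higher at 72 h (adjusted p 0.753 by limma). It was picked for its separation too, so its p and bound give no support either.

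UF_Ppr_AF_115169 showed the opposite pattern. At 72 h it was at -5.14, -5.60, -5.13 and -6.96, not well above background, against -3.87, -3.27, -3.63, -3.02 and -2.48 at 48 h. It was at least 3.28-fold lower at 72 h (adjusted p 0.753 by limma). This probe too was picked for its separation, and it was tested only through the 48 h groups, where it is high. That p and bound therefore give no support. Control liver was lower at 72 h too, at -5.04 ± 0.83 against -3.95 ± 0.98 at 48 h (SD, n = 5 each), with 2 of 5 and 4 of 5 arrays well above background. With normexp the exposed difference was -0.55 log2 units.

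Leaving out exposed 72 h replicate 4 and exposed 48 h replicate 1 left 3 against 4 arrays, and a different probe then had the smallest p on the higher side. Again 0 probes passed after Benjamini-Hochberg adjustment in limma, where the lowest adjusted value was 0.171. Before adjustment, 483 (4.2%) had a p under 0.05, with 379 higher at 72 h and 104 lower, so the higher share was 78.5% without the pair and 58.6% with it. This split turned on single arrays: it was 472 higher and 152 lower without 72 h replicate 4 alone, and 268 higher and 396 lower without 48 h replicate 3. No direction is therefore given for the set. Across 11492 probes the differences with and without the pair correlated at 0.78 (Pearson) and 0.74 (Spearman), and they share 7 arrays.

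That probe was UF_Ppr_AF_102658, identified by a gi number. Its levels were -0.27, -1.62, 0.66 and -3.57 at 72 h, against -3.46, -3.06, -3.75, -3.56 and -3.64 at 48 h. Only 72 h replicate 4 lay in the 48 h range, and the 48 h arrays were tight, with an SD of 0.27. The difference was 2.30 (SE 0.60; adjusted p 0.753 by limma) with all arrays and 3.09 (SE 0.57; adjusted p 0.171) without the pair. With scan day as a block it was 2.04 (SE 0.85). Its exposed means over 24, 48 and 72 h were -0.52, -3.50 and -1.20, with 48 h the lowest. That 48 h lay below 72 h follows from how the probe was picked. Control means were -1.52 ± 1.08 at 72 h and -2.20 ± 0.40 at 48 h (SD, n = 5 each).

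**Figure D4:**
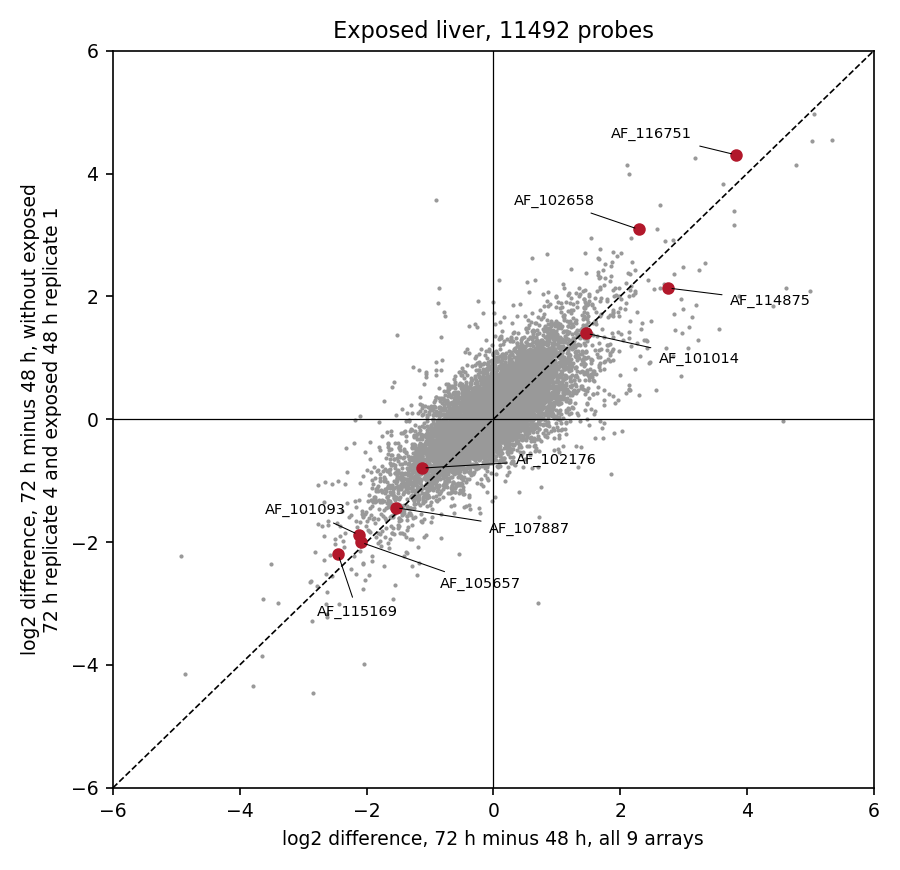
Log2 difference, 72 h minus 48 h, of 11492 probes in exposed liver with all 9 arrays (x axis) and without 72 h replicate 4 and 48 h replicate 1 (y axis); the dashed line marks equality and red points are named probes. UF_Ppr_AF_102658 lies above the line, at 2.30 and 3.09, and UF_Ppr_AF_114875 below it, at 2.75 and 2.14.

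Weighting each array by its agreement with its group, in place of leaving arrays out, gave 2 passing probes. The weights were 1.35, 1.89, 1.76 and 0.14 for 72 h replicates 1 to 4, and 0.25, 0.94, 0.31, 2.27 and 1.54 for 48 h replicates 1 to 5. UF_Ppr_AF_102658 was higher at 72 h by 2.96, while UF_Ppr_AF_110450 differed by -1.81 (SE 0.30), each with an adjusted p of 0.0326 by limma. The lowest weight fell on 72 h replicate 4, the only 72 h array of UF_Ppr_AF_102658 within its 48 h range. Before adjustment, 958 probes (8.34%) had a p under 0.05. In control liver the same weighted fit gave more, 1145 (9.96%), with 0 passing.

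UF_Ppr_AF_110450, named after its values were seen, was at -1.27, -0.48 and -0.61 on 72 h replicates 1 to 3, with the spot of replicate 4 left out as non-uniform or outlying. It was at 3.16, 0.17, 0.11, 1.505 and 0.85 on the 48 h arrays. The exposed times did not overlap, and the 10 control arrays of both times lay between -0.18 and 0.87. Without weights its adjusted p was 0.753 by limma.

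Scan day and slide were also held fixed. With scan day as a block, whose size was read from the 48 h arrays alone, 0 probes passed in limma. Before adjustment 479 (4.17%) had a p under 0.05, with 266 higher at 72 h and 213 lower. With slide as a block 0 passed, and 561 (4.88%) had such a p, with 286 higher and 275 lower. Fits against 48 h replicate 5 alone, the only exposed 48 h array of the second day, were also run over that day and within slide 5. There the lone array was assumed to vary like the other groups. Time and scan day otherwise cannot be told apart in these arrays.

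The 1 probe that passed against 48 h replicate 5, UF_Ppr_AF_109657, rests on that array. It stood there at 2.87 and at -5.52 to -7.31 on the other four 48 h arrays, and at -5.50, -5.49, -7.17 and -6.95 on the 72 h arrays. It was well above background on replicate 5 alone among the 9, with a difference of -9.15 (SE 1.299; adjusted p 0.0206 by limma). With all 9 arrays the difference was -1.63.

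**Figure D5:**
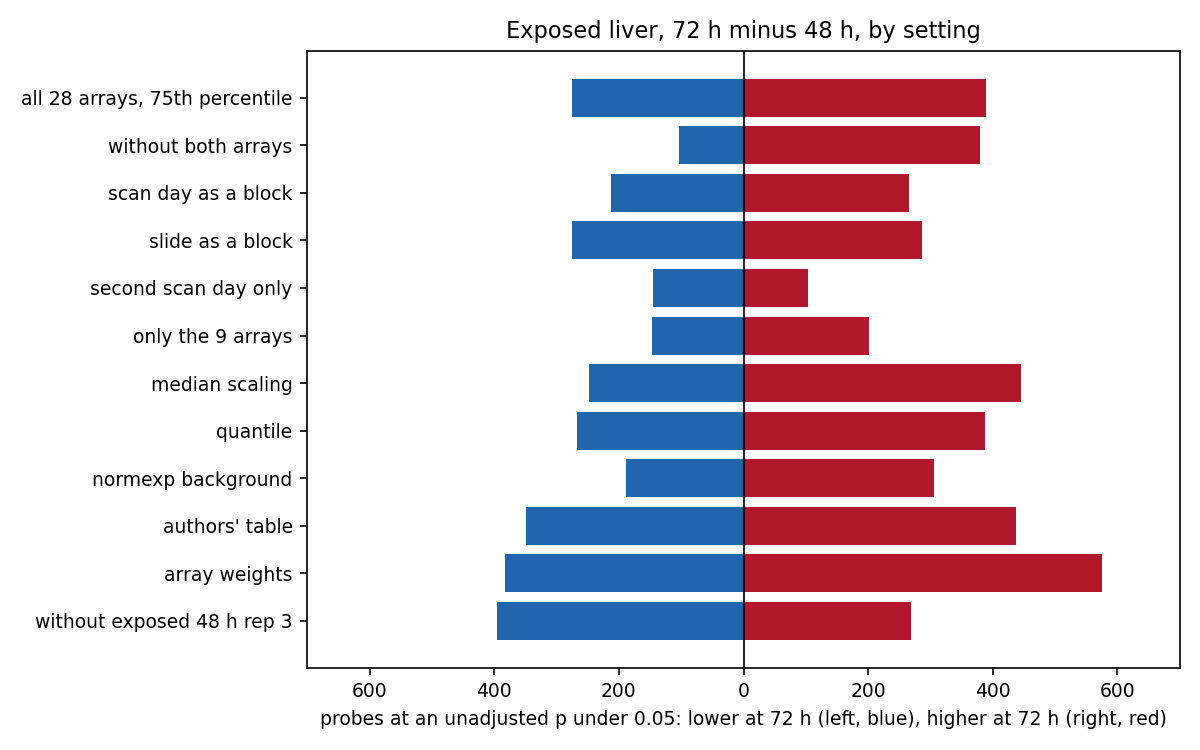
Number of probes with an unadjusted p under 0.05 for exposed 72 h minus exposed 48 h (x axis) under the processing settings listed down the page, with those lower at 72 h to the left in blue and those higher at 72 h to the right in red; "without both arrays" leaves out 72 h replicate 4 and 48 h replicate 1. The count is 664 with all arrays, with 389 higher and 275 lower, and the larger side changes between settings, for example 268 higher and 396 lower without 48 h replicate 3.

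Whether the 72 h against 48 h difference was particular to exposed liver was tested by subtracting the same difference in control liver. For this contrast 0 of 11492 probes passed in limma (lowest Benjamini-Hochberg adjusted p 0.9997), and before adjustment 429 (3.73%) had a p under 0.05. Of these, 227 were positive and 202 negative, while quantile normalization gave 168 and 295, and median scaling gave 173 and 282. In control liver alone 0 passed, and before adjustment 421 (3.66%) had a p under 0.05. The exposed and control differences rest on separate arrays and correlated weakly across 11492 probes, at 0.13 by Pearson and 0.14 by Spearman. Both share scan day, and probes are not independent replicates.

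The probe with the smallest p for that contrast, UF_Ppr_AF_102176, was among the bright ones. In exposed liver it was at 5.69, 5.74, 6.58 and 5.15 at 72 h, against 7.39, 7.25, 6.73, 6.18 and 7.03 at 48 h, a difference of -1.13 (SE 0.56). In control liver it was at 6.65, 7.65, 7.37, 8.78 and 5.99 at 72 h, against 4.78, 5.51, 6.31, 5.07 and 4.58 at 48 h, a difference of 2.04 (SE 0.52). The 2 differences have opposite signs, and in each the arrays of the 2 times overlap at their edges. The exposed minus control difference was -3.17 (SE 0.76), with an unadjusted p of 0.000325 and an adjusted p of 0.9997 by limma. It was -3.16 with normexp and -2.80 to -3.49 with single arrays left out. With scan day as a block it stayed at -3.17 by construction. The scan days divide exposed and control arrays alike at each time, so that block cannot move this contrast. A large value follows from how the probe was picked, and the refits share its arrays, so they give no support. Without the pair another probe had the smallest p for the contrast, and the exposed difference of UF_Ppr_AF_102176 was -0.79. Over 24, 48 and 72 h its means were 5.45, 6.92 and 5.79 in exposed liver, against 5.83, 5.25 and 7.29 in control liver.

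For the other named probes, normexp with its offset of 50 units moved the size of a difference more than scaling did. The offset shrinks log2 differences of dim signals by construction. With normexp in place of the processed signal, UF_Ppr_AF_114875 differed by 1.70, UF_Ppr_AF_101014 by 0.96 and UF_Ppr_AF_102658 by 1.06. On the lower side UF_Ppr_AF_101093 differed by -0.63, UF_Ppr_AF_107887 by -0.45 and UF_Ppr_AF_105657 by -1.01. All kept their sign, and none passed in limma with Benjamini-Hochberg adjustment.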

How the data were processed

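Liver RNA (Cy3) was read on one-colour Agilent arrays. Per the file headers, the scanner tables come from Feature Extraction 10.7.1.1, and the deposited processed signal is a linear, background-corrected intensity. The authors also deposited a table of log2 values, whose normalization and centring are not given in the sources used here, and 1 column of it belongs to no sample and was not used. Array precision is limited by the number of arrays.

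The log2 processed signal of the 15208 probes (1 spot each, control spots left out) was reduced by each array's 75th percentile. Spots marked non-uniform or population outliers, 726 on the 9 arrays, were left out. A probe was tested if 3 or more arrays of a group had it well above background. Group means of 28 arrays were fitted with limma 3.58.1 in R 4.3.3 (22 residual degrees of freedom, two-sided, Benjamini-Hochberg, threshold 0.05). Single values were tested by exact permutation over arrays, and scipy 1.17.1 gave the Benjamini-Hochberg adjustment of the array measures. The fits were tested on simulated data. Replicate numbers follow the order of deposit.

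Probes with a left-out spot on any of the 9 arrays were not eligible for naming. Of the rest, named probes are the 2 higher and 2 lower with the smallest p, the leading pair among probes detected on all 9 arrays, the leading pair without the 2 arrays that stand apart, the leading probe of the exposed minus control contrast, and the largest bound each way. Members and lists were chosen with earlier results of these data known. All 14 gene lists, marker lists included, matched 0 probes. Alternatives covered scaling, background correction (normexp with an offset of 50 units), filters, slide, scan day, array weights, the authors' table and single arrays left out.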

Additional observations from a re-analysis of the deposited data

Results flagged for a closer look

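Of 64 groups of arrays checked, 7 held 1 array far from the rest by Dixon's test at the 95% level; chance flags about 1 in 20 groups. The value given is the gap to the nearest array as a share of the group's range. Most of them concern the pair that stands apart. Exposed 72 h replicate 4 had the lowest number of probes well above background (8865, gap share 0.84), the highest bright-corner signal (19.004 log2 units, 0.968) and the lowest mean correlation with its own time (0.839, 0.881). Exposed 48 h replicate 1 had the highest bright-corner signal of its group (17.87 log2 units, 0.882).

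The other 3 concern named probes in groups outside the exposed 72 h and 48 h arrays. UF_Ppr_AF_101014 was lowest on control 48 h replicate 3 (-2.15 log2 units, 0.75). UF_Ppr_AF_115169 was lowest on the same array (-5.68, 0.797), where it was not well above background, and highest on exposed 24 h replicate 3 (-1.19, 0.74), where it was not well above background either. The part of these arrays in the results was not tested beyond the values given without them.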

How the results depend on the processing

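No paired analysis was possible because the labels give no replicate numbers. Of 11492 probes, 0 passed between exposed 72 h and 48 h in limma under every setting run except array weights (2) and the second scan day only (1), also at an adjusted p of 0.1 with all arrays. The smallest adjusted p ran from 0.0206 to 0.916 over settings. The unadjusted count, 664 with all arrays, was 349 with only the 9 arrays fitted, 422 on probes detected on all 9, 249 with the second day only, 263 within slide 5, 425 with scan day as a block and without the pair, 328 with normexp and without the pair, and 624 to 940 with single arrays left out. UF_Ppr_AF_102658 passed with array weights (2.96).

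In control liver 1 probe passed with slide as a block and 1 with scan day as a block (UF_Ppr_AF_109657 in both, -9.27 and -9.21 against -4.03 unblocked). Its signal cleared background on 0 of 5 control 72 h arrays and 3 of 5 at 48 h, so it was tested only through the group where it is high, and its only second-day 48 h arrays were at -0.36 (control) and 2.87 (exposed). It supports no time difference. The unadjusted control count, 421 (3.66%), was 647 (5.63%) without the pair and 661 (5.75%) without that pair and exposed 24 h replicate 3. It was 853 (7.42%) with median scaling and without the pair, 224 (1.95%) with normexp, and 274 of 7115 (3.85%) on probes detected on all 9. Slide as a block gave 224 (1.95%), scan day as a block 228 (1.98%), and array weights 1145 (9.96%). Single arrays left out gave 300 to 620 (2.61% to 5.4%). For exposed minus control, 1 probe passed with the second day only (UF_Ppr_AF_115247, named after its values were seen, -7.10). That call rests on 2 lone 48 h arrays, exposed replicate 5 at 1.43 and control replicate 1 at -5.27, not well above background; with all arrays the value was -2.50 (adjusted p 0.9997 by limma). The unadjusted count, 429, was 282 with normexp, 261 on probes detected on all 9, 243 with the second day only, 935 with array weights, and 274 to 570 with single arrays left out, lowest without control 48 h replicate 2. Median scaling moved the median control difference from -0.05 to 0.11 log2 units. The cause of these moves was not tested.

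Probes without overlap, 128 of 10965 (1.17%), became 665 (6.06%) without the pair, where chance alone separates more probes, and 74 (0.67%) with normexp. They were 70 of 6730 (1.04%) on probes detected on all 9, and 198 to 425 (1.81% to 3.88%) with single arrays left out. Same-time minus different-time correlation ran from -0.013 to 0.0028 with single arrays left out. It turned positive without 72 h replicate 1 (0.0028) and without 48 h replicate 1 (7.16e-07). Array measures, none past the threshold, changed sign as follows: the 75th percentile to -0.30 without the pair (-0.32 to 0.54 with single arrays left out), the negative-control signal to -0.34 without the pair (-0.46 to 0.50), the bright-corner signal to -1.18 without 72 h replicate 4 (up to 2.24), and detected probes to between -212 and 678. Exposed minus control with only the 9 arrays or within a slide was not run, since neither holds all 4 groups.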
